A study of Mus musculus with 4 samples.

Results

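The genes described are 34 members of the glycolytic pathway, of lactate handling and of the response to low oxygen, out of 27998 genes counted. They were chosen from a fixed list of gene symbols: 2 glucose transporters, the enzymes from hexokinase to pyruvate kinase, lactate dehydrogenases and lactate transporters, regulators of glycolytic flux, oxygen sensing genes and 7 targets of the hypoxia-inducible factor HIF. All 34 symbols were present in the count tables, and the rule uses gene symbols alone. RNA of single cells was counted in 2 pancreatic tumors of KPC mice, which carry KrasLSL-G12D/+, Trp53LSL-R172H/+ and Pdx1-Cre on a C57BL/6J background; Pdx1-Cre removes the stop cassettes in cells of the pancreatic lineage, and tumors form in that organ. Age and sex of the mice are not given in the sources used here, and each replicate was 1 tumor. From each tumor, viable (DAPI-) cells gave an all live library, and DAPI-CD45-CD31-EpCAM-PDPN+ cells, a gate for cancer-associated fibroblasts (CAFs), gave a sorted CAF library. Every group therefore carries the same alleles, and no library of normal pancreas was used here.

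Glycolysis splits glucose into pyruvate with a small yield of ATP, and lactate dehydrogenase turns pyruvate into lactate, which leaves the cell through monocarboxylate transporters. When oxygen is low, prolyl hydroxylases stop marking the HIF alpha subunit for destruction, and HIF then binds promoters and enhancers of glycolytic genes and of genes for pH control, mitophagy and blood vessel growth. Pancreatic ductal adenocarcinoma is known for a dense stroma, poor perfusion and a strong use of glucose, and several enzymes of the pathway come as isozymes made in different cell types.

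The 4 libraries held 8282 barcodes and between 14972652 and 30950993 unique molecular identifiers (UMIs, each counting 1 captured molecule). After filters 7821 cells were kept, and clusters built without the 34 members were named from marker genes. Ductal epithelial-like cells, ductal-like below, numbered 1048 and 171 in all live 1 and 2, and 1056 and 128 in sorted CAF 1 and 2. Fibroblast-like cells numbered 141 and 115 in the former and 176 and 879 in the latter libraries. The gate did not remove ductal-like cells, and those of tumor 1 had little Epcam RNA, at 56.5 and 6.85 CPM (a gene's UMIs scaled to the same total in every sum of cells) in all live 1 and sorted CAF 1 against 1799 and 169 in tumor 2, while Krt19 lay between 1015 and 2271 CPM in all 4. RNA of neutrophils was found in other cells of the all live libraries: S100a8 lay between 86.2 and 308 CPM in ductal-like and fibroblast-like cells there, and between 1.66 and 7.47 CPM in the sorted libraries. Each pair of libraries shared 4 to 6 barcodes, 31 over all pairs and at most 0.448% of the smaller library. Levels below are CPM of the summed cells of a class in a library, and a level of 1 gene is compared with its own level elsewhere.

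Promoters are shown for 5 members whose levels separated cell classes or cell states below, since HIF binds the core letters ACGTG and GCGTG. Each runs from 250 bases before to 50 bases after the transcription start (RefSeq, GRCm38.p6, the assembly that mm10 is made from). It is written on the gene's strand, and capitals mark every ACGTG or GCGTG on either strand, so CACGT and CACGC also appear and matches can overlap.
Car9 (chr4:43506776-43507075, plus strand): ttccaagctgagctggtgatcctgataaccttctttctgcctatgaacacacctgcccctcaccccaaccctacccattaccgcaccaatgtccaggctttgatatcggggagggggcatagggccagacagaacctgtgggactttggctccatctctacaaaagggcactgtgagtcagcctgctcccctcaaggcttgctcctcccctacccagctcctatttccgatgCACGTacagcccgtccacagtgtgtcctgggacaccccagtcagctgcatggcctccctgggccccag
Egln3 (chr12:54203825-54204124, minus strand): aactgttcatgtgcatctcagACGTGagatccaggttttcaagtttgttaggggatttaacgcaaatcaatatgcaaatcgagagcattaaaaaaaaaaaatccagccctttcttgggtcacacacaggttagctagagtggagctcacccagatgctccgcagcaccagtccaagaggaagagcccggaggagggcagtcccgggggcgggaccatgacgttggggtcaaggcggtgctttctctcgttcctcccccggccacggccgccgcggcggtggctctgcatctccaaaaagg
Bnip3 (chr7:138909457-138909756, minus strand): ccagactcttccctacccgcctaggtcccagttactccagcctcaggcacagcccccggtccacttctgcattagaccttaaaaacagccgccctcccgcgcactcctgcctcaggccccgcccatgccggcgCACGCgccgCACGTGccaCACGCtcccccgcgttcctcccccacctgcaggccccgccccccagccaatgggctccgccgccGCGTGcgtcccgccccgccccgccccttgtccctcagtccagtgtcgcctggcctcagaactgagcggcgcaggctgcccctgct
Ankrd37 (chr8:45999801-46000100, minus strand): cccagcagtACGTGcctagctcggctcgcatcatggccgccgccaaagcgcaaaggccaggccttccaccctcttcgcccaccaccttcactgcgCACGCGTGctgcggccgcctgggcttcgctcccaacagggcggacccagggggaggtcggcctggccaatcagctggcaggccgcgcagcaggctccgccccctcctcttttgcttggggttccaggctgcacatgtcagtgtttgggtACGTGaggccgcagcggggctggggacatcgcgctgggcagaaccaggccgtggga
Ldhb (chr6:142507908-142508207, minus strand): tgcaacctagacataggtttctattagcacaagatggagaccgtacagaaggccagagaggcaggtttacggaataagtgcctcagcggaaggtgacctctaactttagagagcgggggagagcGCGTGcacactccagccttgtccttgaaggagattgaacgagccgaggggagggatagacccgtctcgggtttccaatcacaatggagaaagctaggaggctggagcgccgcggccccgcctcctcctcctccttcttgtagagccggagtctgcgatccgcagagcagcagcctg
Of the 31 members with a promoter in that table, 21 held ACGTG in at least 1 promoter, 20 held GCGTG and 28 held either. Counted by promoter, of which a gene can have several, 24 of their 44 promoters held ACGTG, 25 held GCGTG and 36 held either. Among all 32851 promoters of the same length, 19.6% held ACGTG, 32.4% held GCGTG and 43.8% held either. A match describes letters in the window and is not a measured binding site. Car9 and Egln3 have 1 ACGTG each, while Ldhb has 1 GCGTG and no ACGTG.

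**Figure D1:**
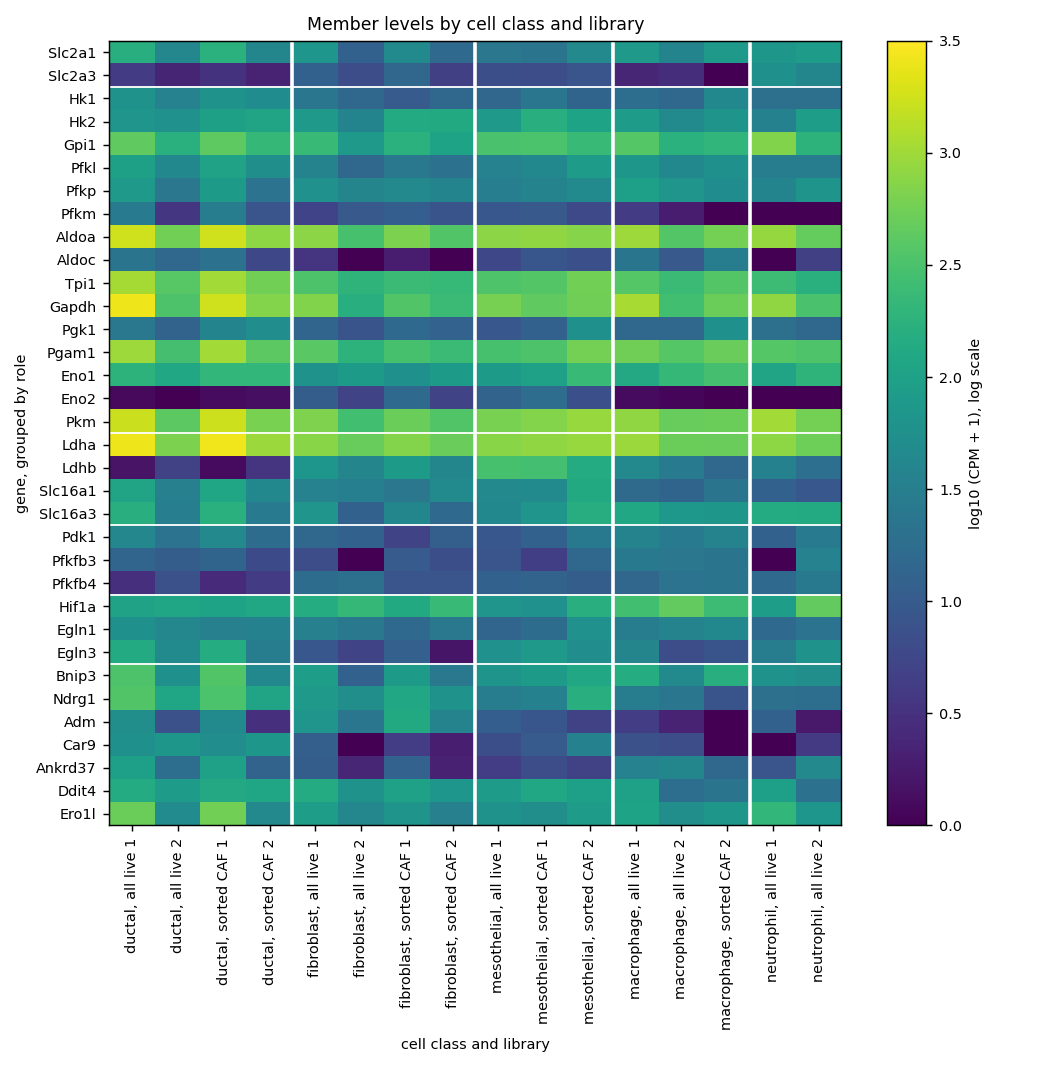
Heat map of the 34 members (rows, grouped by role) in each cell class and library with at least 20 cells (columns), coloured by log10 of CPM plus 1. Ldhb, Eno2 and Slc2a3 are dark in the ductal-like columns where most enzymes of the pathway are bright, and the columns of tumor 1 are brighter than those of tumor 2 for Ero1l, Bnip3 and Ankrd37 in ductal-like cells.

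Ductal-like cells were first compared with fibroblast-like cells within each fraction, which shows where in the tumor the pathway's RNA lies. In the sorted CAF libraries, 8 of 34 members were higher in ductal-like cells and 2 were lower (edgeR quasi-likelihood test on 2 sums per class, Benjamini-Hochberg adjusted p under 0.05). Over all 10697 genes tested, 9.5% were called higher and 14.2% lower. The members higher were Car9, Egln3, Aldoc, Hk1, Gapdh, Pfkl, Tpi1 and Eno1, and those lower were Ldhb and Eno2. With the tumor as a block, 12 were higher and 3 lower (12.9% and 17.2% of all genes), the added ones being Ankrd37, Aldoa, Gpi1 and Ldha on the higher side and Adm on the lower side. In the all live libraries 2 of 33 members tested, Egln3 and Car9, were higher and Ldhb was lower (3.72% and 8.57% of 10558 genes). With the tumor as a block these counts became 10 and 2 (7.58% and 12.1% of all genes). The added higher members were Hk1, Pfkl, Aldoa, Aldoc, Tpi1, Gapdh, Bnip3 and Ndrg1, and Pfkfb4 was the other lower one. The median log2 fold change of the members was 1.58 in the sorted and 1.40 in the all live libraries, beside 0.06 and 0.08 for all genes tested. Without the ductal sum of tumor 1 the members' medians were 0.50 and -0.06, and without that of tumor 2 they were 2.06 and 1.94. The medians of all genes lay between -0.0025 and 0.018 in these fits. In the all live libraries the members' shift was thus not seen without the ductal sum of tumor 1.

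**Figure D2:**
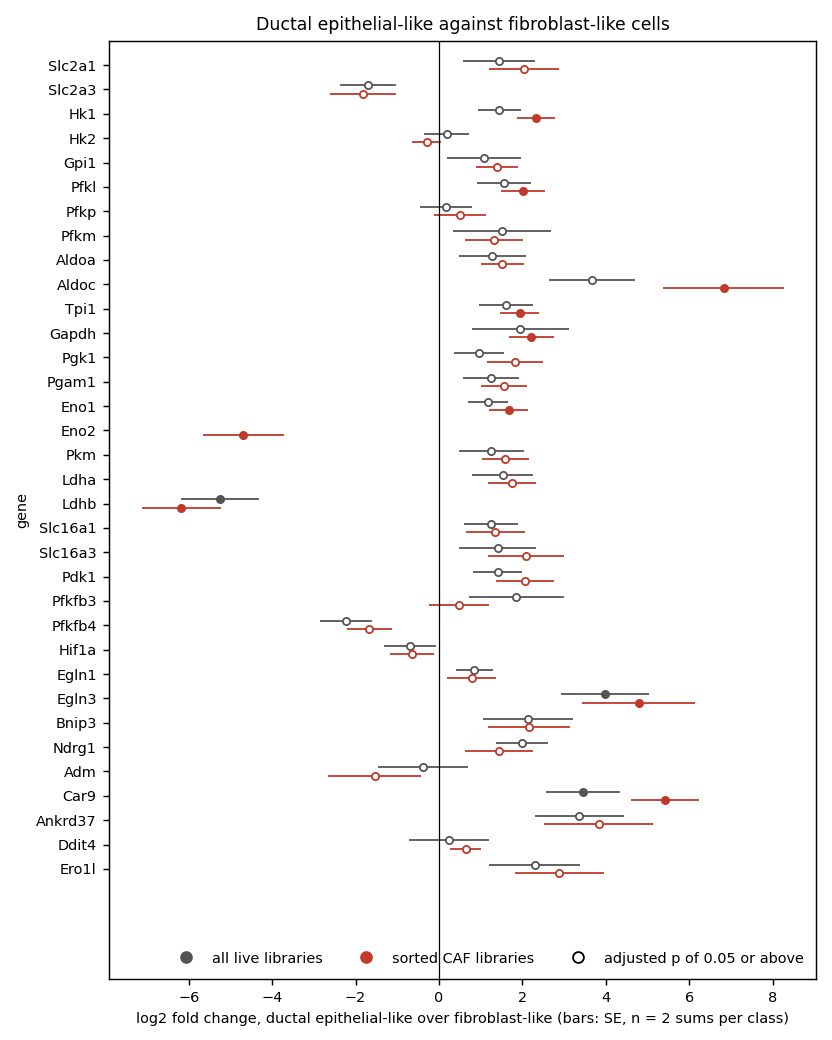
Log2 fold change of each member, ductal-like over fibroblast-like cells, in the all live and sorted CAF libraries, with 1 standard error; filled points passed an adjusted p of 0.05. Ldhb lies near -5 to -6 in both fractions while Car9 and Egln3 lie above 3, and the Aldoc points rest on 3 and 1 UMIs in fibroblast-like cells.

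Lactate dehydrogenase showed the clearest split between its isozymes. Ldhb, the subunit known for favouring lactate use and made in heart and other oxidative tissues, stood at 0.522 and 3.85 CPM in ductal-like cells of all live 1 and 2 and at 0.250 and 2.36 CPM in those of sorted CAF 1 and 2. Fibroblast-like cells held 67.5 and 38.1 CPM in the all live and 79.6 and 39.8 CPM in the sorted libraries. Every ductal value was thus below every fibroblast value, and the log2 difference was -5.25 ± 0.93 (SE, n = 2 sums per class, edgeR adjusted p 0.00888) in the all live and -6.18 ± 0.95 (adjusted p 0.00349) in the sorted libraries. Leaving out the fibroblast sum of tumor 1 ended the call in the all live libraries (log2 -4.78, edgeR adjusted p 0.0642). Fibroblast markers summed to between 48.8 and 499 CPM in ductal-like cells, against at least 26818 CPM in fibroblast-like cells; their part in the low Ldhb level was not tested.

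Ldha, the subunit known for making lactate and a HIF target, was abundant in both classes. It stood at 2576 and 651 CPM in ductal-like cells of all live 1 and 2, with 2694 and 929 CPM in their sorted counterparts. Fibroblast-like cells held 747 and 481 CPM in the all live and 701 and 497 CPM in the sorted libraries. Ductal levels of tumor 1 were the high ones, and the 651 CPM of all live 2 lay within the fibroblast range (edgeR log2 difference 1.75 ± 0.57, adjusted p 0.0617, sorted libraries; adjusted p 0.0465 with the tumor as a block). As a share of both subunits' UMIs, Ldhb made up 0.0093% to 0.589% in ductal-like cells and 7.34% to 10.2% in fibroblast-like cells. The 2 ranges did not overlap, but an exact permutation test of 2 tumors against 2 cannot go below a two-sided p of 0.33. Near-identical processed copies of Ldha, Gapdh, Pgk1, Pgam1, Aldoa and Eno1 exist in the mouse genome, so reads of these genes can be lost or split between copies and their levels are uncertain; Eno1b, the copy of Eno1, held 686 UMIs beside 13446 of Eno1, and Pgk1-rs7 held 235 beside 1915 of Pgk1.

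Enolase was split between its isozymes as well. Eno2, the neuronal enolase, stood at 0.250 and 0.393 CPM in ductal-like cells of sorted CAF 1 and 2 and at 14.9 and 4.22 CPM in fibroblast-like cells. It was lower in the ductal cells of both tumors (edgeR log2 difference -4.70 ± 0.97, adjusted p 0.0112), and without the ductal sum of tumor 1 or the fibroblast sum of tumor 1 the call was lost (edgeR adjusted p 0.0806 and 0.0607). In the all live libraries Eno2 did not pass the filter on low counts, with 5 UMIs and none in the ductal and 12 and 3 UMIs in the fibroblast sums. Eno1, the common enolase, was opposite: 209 and 204 CPM in ductal against 56.4 and 81.0 CPM in fibroblast-like cells of the sorted libraries (edgeR log2 difference 1.67 ± 0.48, adjusted p 0.0401). That call was lost without the ductal sum of tumor 1 or either fibroblast sum (edgeR adjusted p 0.0748 to 0.26).

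Aldoc, the brain-type aldolase, was counted almost wholly on the ductal side. In the all live libraries it had 486 and 22 UMIs in ductal-like against 3 and 0 in fibroblast-like cells, where 0 allows up to 4.23 CPM. The ductal level was 8.77 times the fibroblast level in all live 1 (exact 95% interval 2.98 to 42.7) and at least 3.34-fold higher in all live 2, against a floor of 3 counts per library (edgeR adjusted p 0.0509; 0.0155 with the tumor as a block). Ductal-like cells of the sorted libraries stood at 19.1 and 4.72 CPM against 0.830 CPM, which was 1 UMI, and 0 (up to 0.281 CPM) in fibroblast-like cells, a ratio of 23.0 (4.10 to 909.5) in sorted CAF 1 and at least 16.8-fold in sorted CAF 2. These intervals and floors cover counting error only. The edgeR adjusted p was 0.0127, and without the ductal sum of tumor 1 or the fibroblast sum of tumor 2 the call was lost (edgeR adjusted p 0.07 and 0.172). Aldoa, the main aldolase of most tissues, stood at 1743 and 807 CPM in ductal and 641 and 349 CPM in fibroblast-like cells there, with an edgeR adjusted p of 0.0729 (0.0241 with the tumor as a block). With the block it had an all live log2 difference of 1.12 ± 0.34 (edgeR adjusted p 0.0478; 0.375 without).

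Hexokinases and phosphofructokinases gate the entry of glucose into the pathway. Hk1, the hexokinase of most adult tissues, stood at 62.6 and 49.5 CPM in ductal-like and 9.13 and 14.0 CPM in fibroblast-like cells of the sorted libraries. Ductal values were above fibroblast values in both tumors (edgeR log2 difference 2.33 ± 0.46, adjusted p 0.00974), also in the all live libraries at 60.2 and 34.7 against 22.5 and 14.1 CPM (adjusted p 0.119; 0.0377 with the tumor as a block). Without either fibroblast sum the sorted call was lost (edgeR adjusted p 0.089 and 0.0609). Hk2, the HIF-responsive hexokinase, was at 97.7 and 110.4 CPM in ductal and 139 and 133 CPM in fibroblast-like cells of the sorted libraries, and this difference did not pass (edgeR log2 -0.30 ± 0.34, adjusted p 0.585). Hk2 made up 52.2% to 69.0% of both hexokinases' UMIs in ductal-like cells and 72.2% to 93.8% in fibroblast-like cells. Pfkl, the liver-type phosphofructokinase, was at 103 and 53.8 CPM against 24.1 and 19.1 CPM in the sorted libraries (edgeR log2 difference 2.01 ± 0.52, adjusted p 0.0286), a call lost without the ductal sum of tumor 1 or either fibroblast sum (adjusted p 0.084 to 0.212). Pfkl of the all live libraries was at 97.1 and 41.8 CPM against 36.2 and 14.1 CPM (edgeR adjusted p 0.167; log2 1.52 ± 0.39, adjusted p 0.0273 with the tumor as a block). Pfkp, the platelet type, was at 79.4 and 20.8 CPM against 43.1 and 37.2 CPM, so that the ductal values lay on both sides of the fibroblast values (edgeR adjusted p 0.613). Pfkm, the muscle type, was at 28.2 and 7.47 CPM against 9.96 and 7.03 CPM (edgeR adjusted p 0.222).

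Lower in the pathway, Tpi1 interconverts the triose phosphates and Gapdh makes the NADH that lactate dehydrogenase uses. Tpi1 stood at 1049 and 560.0 CPM in ductal and 245 and 217 CPM in fibroblast-like cells of the sorted libraries (edgeR log2 difference 1.93 ± 0.47, adjusted p 0.0222). Gapdh stood at 1754 and 707 CPM against 348 and 243 CPM (edgeR log2 difference 2.21 ± 0.54, adjusted p 0.0222). Both genes were higher in the ductal cells of both tumors in this fraction, and both calls were lost without the ductal sum of tumor 1 or either fibroblast sum (edgeR adjusted p 0.0571 to 0.155 for Tpi1 and 0.0534 to 0.166 for Gapdh). Gapdh of the all live libraries stood at 2558 and 335 CPM in ductal and 682 and 159 CPM in fibroblast-like cells, higher in the ductal cells within each tumor. Its edgeR log2 difference was 1.95 ± 1.15 (adjusted p 0.341), and 1.60 ± 0.42 (adjusted p 0.0297) with the tumor as a block. Without the ductal sum of tumor 1, which leaves that of tumor 2 against the fibroblast sums of both tumors, it was -0.43. Tpi1 was at 1075 and 394 CPM in ductal and 336 and 189 CPM in fibroblast-like cells there (edgeR adjusted p 0.16; log2 1.44 ± 0.38, adjusted p 0.0306 with the tumor as a block).

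Transporters and flux regulators gave no calls in either fraction by the unblocked fit. Slc2a1 (GLUT1), the HIF-regulated glucose transporter, stood at 155 and 41.1 CPM in ductal and 67.5 and 11.3 CPM in fibroblast-like cells of the all live libraries. The sorted libraries held 169 and 39.3 CPM in ductal and 45.6 and 14.9 CPM in fibroblast-like cells. Ductal levels were the higher within each tumor and fraction, but those of tumor 2 were below the fibroblast level of tumor 1, and the edgeR adjusted p was 0.353 in the all live and 0.121 in the sorted libraries. Slc2a3 (GLUT3), a high-affinity transporter, pointed the other way at 2.30 and 1.18 CPM against 13.3 and 3.66 CPM in the sorted libraries (edgeR adjusted p 0.139). Pfkfb4, which sets the level of an activator of phosphofructokinase, was at 2.05 and 6.42 CPM in ductal and 16.1 and 18.3 CPM in fibroblast-like cells of the all live libraries (edgeR log2 difference -2.24 ± 0.62, adjusted p 0.0508; 0.0121 with the tumor as a block). The lactate exporter Slc16a3 (MCT4), another HIF target, was at 164 and 27.5 CPM in ductal and 39.8 and 14.7 CPM in fibroblast-like cells of the sorted libraries (edgeR adjusted p 0.146).

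Among the oxygen sensing genes, Egln3, a prolyl hydroxylase that HIF itself induces, had the wider span. It stood at 139 and 45.0 CPM in ductal-like cells and at 8.04 and 4.23 CPM in fibroblast-like cells of all live 1 and 2. The sorted libraries held 145 and 29.5 CPM in ductal and 10.8 and 0.562 CPM in fibroblast-like cells. Every ductal value was above every fibroblast value, with edgeR log2 differences of 3.97 ± 1.06 (adjusted p 0.0435) and 4.79 ± 1.35 (adjusted p 0.0384). The call in the all live libraries was lost without the ductal sum of tumor 1 or either fibroblast sum (log2 2.68 to 4.47, edgeR adjusted p 0.176 to 0.26), and that in the sorted libraries without the ductal sum of tumor 1 or the fibroblast sum of tumor 2 (log2 3.26 and 3.23, edgeR adjusted p 0.0873 and 0.159). Egln1, the main hydroxylase of normal oxygen, ranged only from 32.8 to 55.5 CPM in ductal and from 14.9 to 32.2 CPM in fibroblast-like cells (edgeR adjusted p 0.278 and 0.382). Hif1a, the HIF alpha subunit, is controlled mainly at the protein level; its RNA was at 103 to 119 CPM in ductal and 133 to 236 CPM in fibroblast-like cells (edgeR adjusted p 0.545 and 0.423).

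Car9, the cell surface carbonic anhydrase used as a tissue marker of hypoxia, had the smallest adjusted p among the 7 HIF targets. Ductal-like cells held 55.7 and 71.3 CPM in the all live and 51.7 and 69.9 CPM in the sorted libraries. Fibroblast-like cells held 10.5 and 0 CPM (0 UMIs, which allow up to 4.23 CPM) in the all live and 3.32 and 0.938 CPM in the sorted libraries. The ductal values of both tumors were close to each other and above all fibroblast values, with edgeR log2 differences of 3.45 ± 0.88 (adjusted p 0.038) and 5.42 ± 0.82 (adjusted p 0.00334). The call in the all live libraries was lost without the ductal sum of tumor 1 (log2 3.43, edgeR adjusted p 0.0642) or the fibroblast sum of tumor 2 (log2 2.67, edgeR adjusted p 0.128), and that in the sorted libraries without the fibroblast sum of tumor 2 (log2 4.30, edgeR adjusted p 0.0508). The highest fibroblast value, in all live 1, came with ductal markers summing to 897 CPM in those cells, against 323, 96.9 and 81.9 CPM in fibroblast-like cells of sorted CAF 1, sorted CAF 2 and all live 2; their part in the Car9 level was not tested.

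Bnip3 (mitophagy), Ndrg1 (a stress-induced gene of membrane traffic), Ankrd37 and Ero1l (an oxidase of protein folding) are further targets. Bnip3 stood at 334 and 55.3 CPM in ductal and 86.8 and 11.3 CPM in fibroblast-like cells of the all live libraries (edgeR adjusted p 0.266; log2 2.07 ± 0.56, adjusted p 0.0325 with the tumor as a block). Ndrg1 stood at 352 and 112 CPM against 74.0 and 52.2 CPM there (edgeR adjusted p 0.075; log2 1.81 ± 0.46, adjusted p 0.0256 with the block). Ductal levels of both genes were the higher within each tumor. Ankrd37 stood at 101 and 12.2 CPM in ductal and 11.6 and 1.13 CPM in fibroblast-like cells of the sorted libraries (edgeR adjusted p 0.0728; 0.00404 with the tumor as a block). Ero1l stood at 562 and 42.8 CPM against 63.1 and 32.5 CPM there (edgeR adjusted p 0.0924), so the values of tumor 2 lay closer together than those of tumor 1. Adm (adrenomedullin, a vasodilating peptide) was higher on the fibroblast side, at 131 and 36.3 CPM against 44.9 and 1.96 CPM in ductal cells of sorted CAF 1 and 2 (edgeR log2 -1.54 ± 1.12, adjusted p 0.369; -2.24 ± 0.66, adjusted p 0.044 with the tumor as a block). Ddit4, an inhibitor of mTORC1 signalling, did not separate the classes (edgeR adjusted p 0.918 and 0.252).

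The counts of called members depended strongly on single sums. Counts over all genes moved in the same direction each time, though not in proportion to those of the members. Whether the members depended on single sums more than other genes did was not tested. In the sorted libraries 10 members were called in all, 4 without the ductal sum of tumor 1, 25 without that of tumor 2, 4 without the fibroblast sum of tumor 1 and 2 without that of tumor 2. In the all live libraries 3 were called, 13 without the ductal sum of tumor 2, and 1 without any of the other 3 sums. A rule with no test gave a count that does not rest on the spread: 8 of 29 members were at least 2 times higher in ductal-like cells in both fractions of both tumors (Slc2a1, Hk1, Pfkl, Tpi1, Gapdh, Egln3, Car9 and Ankrd37), beside 9.59% of 8531 genes. By the same rule Ldhb and Pfkfb4 were lower, beside 10.9% of genes. No member's difference between ductal and fibroblast cells differed between the fractions by an interaction test (edgeR, 0 of 34 members and 0 of 11294 genes; with tumor and class as a block Adm had the smallest unadjusted p, 0.00258, adjusted p 0.534, and 13 genes were called).

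**Figure D3:**
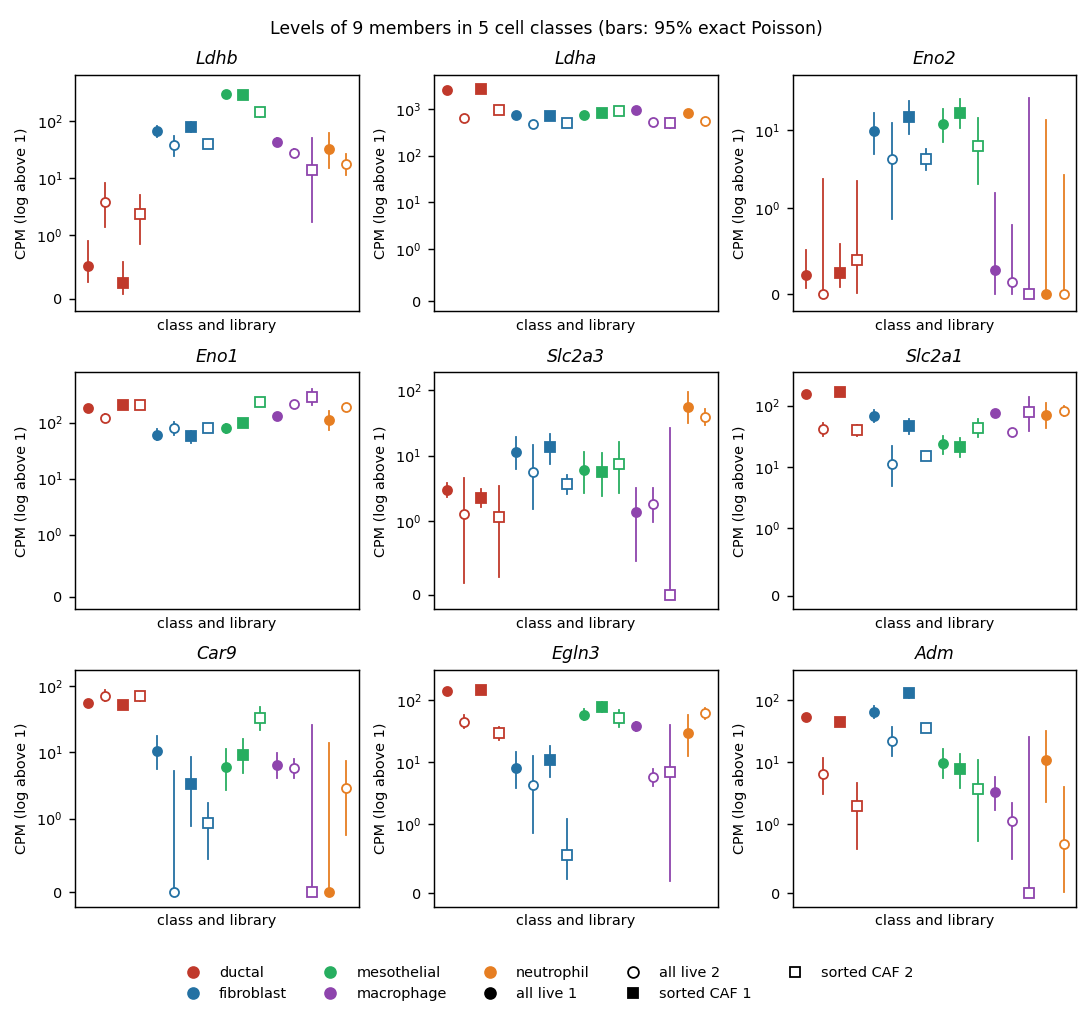
CPM (log scale above 1, linear below) of 9 members in each class and library with at least 20 cells; colours are classes, filled symbols tumor 1, open symbols tumor 2, circles all live and squares sorted CAF libraries, and lines are exact 95% Poisson intervals. Ldhb runs from below 4 CPM in ductal-like to above 140 CPM in mesothelial-like cells, and Slc2a3 is highest in neutrophil-like cells at 55.5 and 38.8 CPM.

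Macrophage or monocyte-like cells and neutrophil-like cells were compared within the all live libraries. Against fibroblast-like cells, 1 of 33 members, Aldoc, was higher in macrophage or monocyte-like cells and none was lower (6.84% and 12% of 10558 genes). With the tumor as a block 3 were higher (Aldoc, Pfkl and Eno1) and 2 lower (Slc2a3 and Adm), beside 9.54% and 15% of genes. Aldoc stood at 21.9 and 8.57 CPM in macrophage or monocyte-like cells, 9.08 times the fibroblast level in all live 1 (exact 95% interval 2.99 to 45.0) and at least 2.02-fold higher in all live 2, and the call was lost without any 1 of the 4 sums (edgeR adjusted p 0.0714 to 0.21). Adm was at 3.37 and 1.14 CPM in macrophage or monocyte-like cells against 65.9 and 22.6 CPM in fibroblast-like cells, with no overlap (edgeR log2 difference -4.22 ± 1.28, adjusted p 0.0517; 0.00215 with the tumor as a block). Eno1 was at 129 and 211 CPM against 61.1 and 80.4 CPM (edgeR adjusted p 0.0805; 0.0495 with the block), Pfkl at 70.4 and 42.0 CPM against 36.2 and 14.1 CPM (0.231; 0.0329) and Slc2a3 at 1.40 and 1.86 CPM against 11.3 and 5.65 CPM (0.0575; 0.0434).

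Ductal-like cells differed from macrophage or monocyte-like cells in 5 of 33 members by edgeR. Car9, Ndrg1 and Slc16a1 were higher in ductal cells (10.2% of 10558 genes were called higher) and Ldhb and Pfkfb4 lower (9.75%). Slc16a1 (MCT1), a transporter that moves lactate in either direction, stood at 110.0 and 32.1 CPM in ductal and 15.2 and 12.3 CPM in macrophage or monocyte-like cells (log2 difference 2.37 ± 0.66, edgeR adjusted p 0.0363). Slc16a3, its partner for export, stood at 156 and 30.2 CPM in ductal and 126 and 71.6 CPM in macrophage or monocyte-like cells, so the groups overlapped. Slc16a1 made up 10.7% and 14.7% of both transporters' UMIs in macrophage or monocyte-like cells and 41.3% and 51.5% in ductal-like cells. Ldhb was at 43.5 and 28.0 CPM in macrophage or monocyte-like cells, above both ductal values (log2 -4.83 ± 0.91, edgeR adjusted p 0.00732). Ndrg1 was at 352 and 112 CPM in ductal and 29.2 and 22.3 CPM in macrophage or monocyte-like cells (log2 difference 3.15 ± 0.65, edgeR adjusted p 0.0103). Car9 was at 6.45 and 5.72 CPM in macrophage or monocyte-like cells (log2 difference of ductal cells 3.26 ± 0.81, edgeR adjusted p 0.0226), and Pfkfb4 at 13.2 and 20.3 CPM (log2 -2.35 ± 0.59, edgeR adjusted p 0.0242).

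With the tumor as a block, 6 members were higher and 3 lower in that comparison (14.9% and 13.4% of genes), the added ones being Hk1, Egln3 and Adm on the higher side and Hif1a on the lower side. Adm was at 53.2 and 6.42 CPM in ductal against 3.37 and 1.14 CPM in macrophage or monocyte-like cells (edgeR log2 3.34 ± 0.63, adjusted p 0.0042 with the block; 0.0636 without). Egln3 was at 139 and 45.0 CPM against 37.6 and 5.72 CPM (edgeR adjusted p 0.0306; 0.148) and Hk1 at 60.2 and 34.7 CPM against 17.1 and 14.1 CPM (0.017; 0.0629). Hif1a stood at 272 and 462 CPM in macrophage or monocyte-like cells against 103 and 113 CPM in ductal-like cells (edgeR log2 -1.87 ± 0.64, adjusted p 0.0732; 0.0259 with the block). Without the ductal sum of tumor 2 the count of 5 became 9, without the macrophage sum of tumor 1 it became 2 and without that of tumor 2 it became 1. Of the 5 members Ldhb passed whichever sum was left out. Without either macrophage sum the calls of Car9 (edgeR adjusted p 0.143 and 0.176), Ndrg1 (0.0678 and 0.102), Slc16a1 (0.159 and 0.223) and Pfkfb4 (0.0524 and 0.185) were lost, and without the ductal sum of tumor 1 those of Slc16a1 (0.256) and Pfkfb4 (0.119) as well.

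Neutrophil-like cells stood out for Slc2a3, the transporter that granulocytes are known to use. They held 55.5 and 38.8 CPM in all live 1 and 2 against 1.40 and 1.86 CPM in macrophage or monocyte-like cells, with no overlap. The edgeR log2 difference was 5.03 ± 0.70 with an adjusted p of 0.0708, and 4.94 ± 0.57 with an adjusted p of 0.00894 when the tumor was a block, which called 0.407% of genes higher. By the unblocked edgeR fit 0 of 33 members were called, beside 0.0189% of 10558 genes higher and 0.0% lower; 1 member was higher and 1 lower at an unadjusted p under 0.05, and 1 was higher by DESeq2. Slc2a1 was at 70.3 and 82.7 CPM in neutrophil-like and 74.9 and 37.4 CPM in macrophage or monocyte-like cells, so the groups overlapped. Slc2a3 thus made up 44.1% (exact 95% interval 27.2% to 62.1%) and 32.0% (25% to 39.6%) of both transporters' UMIs in neutrophil-like cells, and 1.84% and 4.73% in macrophage or monocyte-like cells. The neutrophil-like cells of all live 1 were 36, of which 26 lay in a cluster led by Camp, Ngp and Ltf, genes of immature granules, while those of all live 2 were 464, of which 211 lay in cluster 4 and 248 in cluster 15. Slc2a3 was at 10.1 CPM in cluster 4, which was 8 UMIs, and at 76.9 CPM in cluster 15. Cluster 4 held macrophage markers summing to 20788 CPM beside 17632 CPM of neutrophil markers, with 0 of 12 and 0 of 9 at 0, and cluster 15 held 4108 and 141378 CPM. The neutrophil-like class of all live 2 was thus mixed in its markers, and their part in the Slc2a3 levels was not tested. At the other Leiden resolution the neutrophil-like clusters held 256 and 32 cells. Against macrophage or monocyte-like cells 1 member was then higher, beside 33 genes higher and 30 lower of 10339. Hif1a was at 88.8 CPM in the neutrophil-like cells of all live 1 and at 458 CPM in those of all live 2.

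Mesothelial-like cells, which resemble the lining of the body cavity, held the highest Ldhb of the 5 classes. Ldhb stood at 301 CPM in all live 1 and at 288 and 143 CPM in sorted CAF 1 and 2, above the 79.6 and 39.8 CPM of fibroblast-like cells in the sorted libraries. That difference did not pass (edgeR log2 1.83 ± 0.70, adjusted p 0.363). Ldhb made up 28.6%, 25.7% and 13.6% of both subunits' UMIs in mesothelial-like cells. In the edgeR fit of the sorted libraries 0 of 34 members were called between mesothelial-like and fibroblast-like cells (0.673% of 10697 genes higher, 0.505% lower); 6 were higher and 1 lower at an unadjusted p under 0.05, and by DESeq2 the counts were 3 and 1. With the block Egln3 was called (1.18% of genes higher, 0.972% lower), at 77.9 and 50.7 CPM against 10.8 and 0.562 CPM (edgeR log2 4.49 ± 0.80, adjusted p 0.0484; 0.255 without the block). These cells also held the fibroblast markers at 16567 to 16779 CPM, less than the at least 26818 CPM of fibroblast-like cells.

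Few members were called between the sorted CAF and all live libraries of the same class. In fibroblast-like cells, 0 of 30 members and 0.0% of 8691 genes were called in either direction between the sorted CAF and all live libraries by edgeR (1 member higher and 1 lower at an unadjusted p under 0.05, 0 members by DESeq2). With the tumor as a block Hk2 and Adm were called higher (0.299% of genes higher, 0.61% lower). Hk2 stood at 139 and 133 CPM in fibroblast-like cells of the sorted and 76.4 and 36.7 CPM in those of the all live libraries, with no overlap (edgeR log2 difference 1.25 ± 0.21, adjusted p 7.28e-06 with the block, 1.0 without). Adm stood at 131 and 36.3 CPM against 65.9 and 22.6 CPM (edgeR log2 0.88 ± 0.23, adjusted p 0.0231 with the block, 1.0 without), and without the sorted sum of tumor 1 the unblocked log2 difference was -0.26. In ductal-like cells 0 of 33 members were called with or without the block (0.0% of 12254 genes in either direction without it, 0.00816% higher and 0.685% lower with it); unadjusted p-values under 0.05 were found for 0 members, and by DESeq2 0 were called. The summed dissociation stress list lay between 7350 and 11614 CPM in fibroblast-like cells of the sorted and at 9954 and 7542 CPM in those of the all live libraries; its part in the Hk2 difference was not tested.

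**Figure D4:**
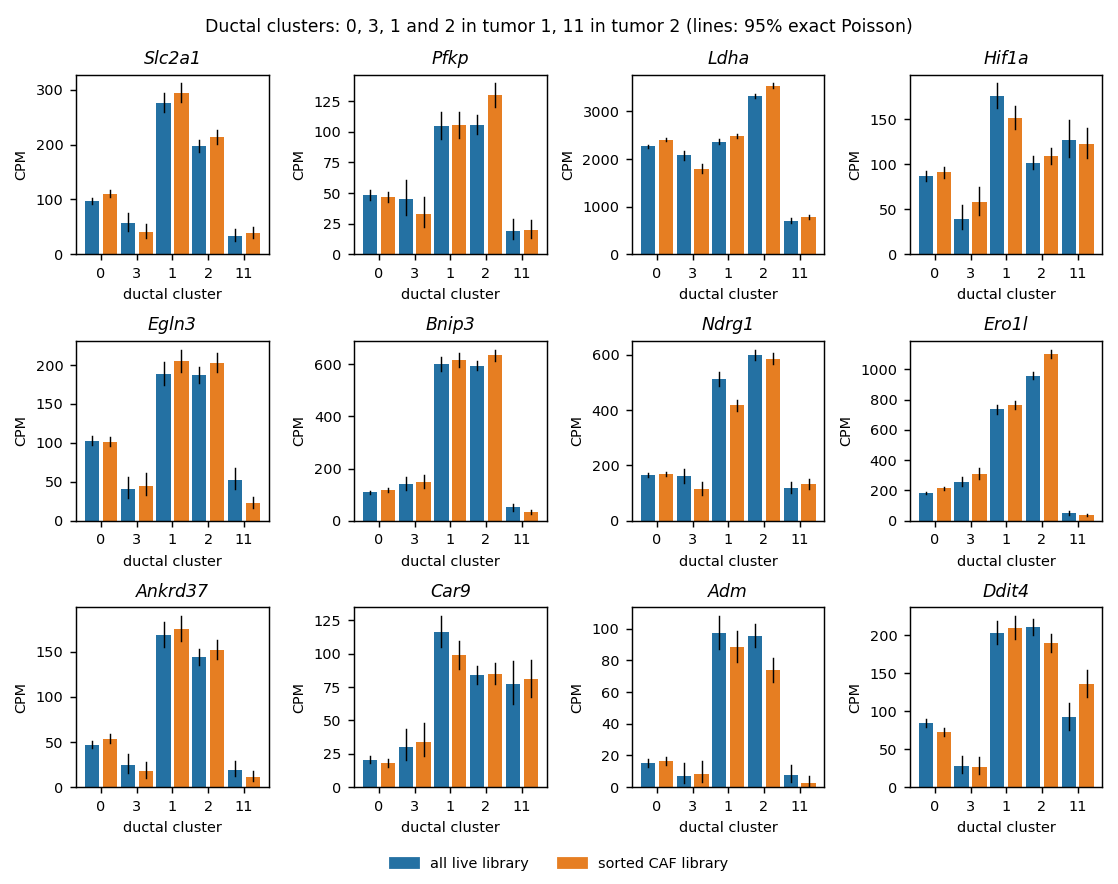
CPM of 12 members in ductal clusters 0, 3, 1 and 2 of tumor 1 and cluster 11 of tumor 2, all live and sorted CAF libraries side by side, with exact 95% Poisson intervals. Bnip3, Ndrg1, Ero1l, Ankrd37 and Adm are high in clusters 1 and 2 in both libraries and low in clusters 0, 3 and 11, while Car9 is also high in cluster 11.

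Within tumor 1, most ductal-like cells lay in 4 clusters, 0 to 3, and 29 cells of all live 1 and 2 of sorted CAF 1 lay in cluster 11, which otherwise held cells of tumor 2. Cluster 0 was led by Aqp5 and genes of mitosis, cluster 1 by Npy and Cpe, cluster 2 by Adh7 and Ttr, and cluster 3 by Fabp2 and Tff1. Values are descriptions, since each came from 1 tumor and its 2 libraries. In both libraries 13 of 32 members were at least 2 times higher in cluster 1 than in cluster 0, beside 9.06% of 10677 genes. Cluster 2 was at least 2 times higher than cluster 0 in 10 of 31 members, beside 2.63% of 10722 genes: Pfkp, Aldoc, Pfkfb3, Bnip3, Ndrg1, Adm, Car9, Ankrd37, Ddit4 and Ero1l. No member was at least 2 times lower in cluster 1 or 2 than in cluster 0 (7.32% and 5.65% of genes). All 10 members were also on the list for cluster 1, where Slc2a1, Pfkfb4 and Egln1 were added.

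Bnip3 was among the abundant members on both lists. It stood at 108 and 117 CPM in cluster 0 of all live 1 and sorted CAF 1, at 599.5 and 615 CPM in cluster 1 and at 594 and 634 CPM in cluster 2. Ero1l stood at 185 and 213 CPM in cluster 0, 736 and 763 CPM in cluster 1 and 957 and 1102 CPM in cluster 2. The vasodilator Adm stood at 15.2 and 16.5 CPM in cluster 0, 97.2 and 88.3 CPM in cluster 1 and 95.3 and 73.7 CPM in cluster 2. In each case the all live and sorted values of a cluster were closer to each other than to those of cluster 0.

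Car9 and Ankrd37 were also lower in cluster 0 than in clusters 1 and 2. Car9 was at 20.5 and 18.0 CPM in cluster 0, 116 and 98.6 CPM in cluster 1 and 83.8 and 84.6 CPM in cluster 2, and at 30.3 and 34 CPM in cluster 3. Ankrd37 was at 47.1 and 53.6 CPM in cluster 0, 168 and 176 CPM in cluster 1, 144 and 152 CPM in cluster 2 and 25.05 and 17.5 CPM in cluster 3. Enzymes lay closer together: Ldha was at 2264 and 2401 CPM in cluster 0, 2365 and 2481 CPM in cluster 1 and 3316 and 3542 CPM in cluster 2, and Eno1 was at 182 and 212, 138 and 190, and 213 and 228 CPM. Hif1a was highest in cluster 1, at 176 and 151 CPM against 86.9 and 90.9 CPM in cluster 0 and 102 and 109 CPM in cluster 2.

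Depth and cell division moved with these clusters. Cluster 0 had median depths of 28354 and 23939 UMIs per cell and 14 proliferation genes summing to 1512 and 1606 CPM. Clusters 1 and 2 had 12759 to 19392 UMIs and summed to 162 to 387 CPM of those genes. Cluster 3 had 8347.5 and 6445 UMIs and dissociation stress genes at 2808 and 2864 CPM against 5484 to 10231 CPM in the other 3; it was at least 2 times lower than cluster 0 in 7 of 31 members, beside 21.9% of 10143 genes. The part of depth and of cell division in the HIF target levels was not tested.

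Ductal-like cells of tumor 2, mostly in cluster 11, had Car9 near the level of cluster 2, but Bnip3, Ero1l and Adm far below that of clusters 1 and 2. Car9 stood at 76.9 and 80.7 CPM in cluster 11 of all live 2 and sorted CAF 2, close to cluster 2 of tumor 1. Bnip3 was at 51.0 and 32.5 CPM there, Ero1l at 51.0 and 37.2 CPM and Adm at 7.52 and 2.90 CPM, all below cluster 0 of tumor 1. Between whole ductal classes, 20 of 32 members were at least 2 times higher in tumor 1 than in tumor 2 in the all live (13.8% of 12006 genes) and 20 of 32 in the sorted libraries (11.9% of 11683 genes), with medians of 1.54 and 1.31 on the log2 scale beside -0.27 and -0.16 for all genes. One member was at least 2 times lower in tumor 1 in the all live libraries (Pfkfb4, beside 25.6% of genes) and none in the sorted libraries (20.9%). Ero1l stood at 510.0 and 562 CPM in tumor 1 against 48.2 and 42.8 CPM in tumor 2. Median depth was 19156 and 17711.5 UMIs in ductal cells of tumor 1 and 7362 and 16844 in tumor 2.

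The tumors differed in the same direction in fibroblast-like and macrophage or monocyte-like cells, while in mesothelial-like cells more members were at least 2 times lower than at least 2 times higher in tumor 1. In fibroblast-like cells 13 of 26 members were at least 2 times higher in tumor 1 in the all live (12.5% of 7864 genes) and 9 of 31 in the sorted libraries (7.25% of 11645 genes); none and 1 (Pdk1) were at least 2 times lower, beside 5.34% and 9.27% of genes. In macrophage or monocyte-like cells 10 of 31 members were (7.4% of 10266 genes) and none was lower (6.64%). Slc2a1, Bnip3 and Adm were on all 5 lists of ductal, fibroblast and macrophage sums, with Bnip3 at 86.8 and 11.3 CPM in fibroblast-like and 147 and 44.9 CPM in macrophage or monocyte-like cells of all live 1 and 2. In neutrophil-like cells 4 of 28 members were at least 2 times higher in tumor 1 (7.37% of 6224 genes) and 6 were lower (37.4%), among them Hif1a and Hk2. The share of members lower was thus below that of all genes. Their median log2 ratio of tumor 1 over tumor 2 was 0.10, beside -0.59 for all genes. In mesothelial-like cells of the sorted libraries 2 of 28 members, Eno2 and Ldhb, were higher (7.85% of 8267 genes), and 11 of 28 members were at least 2 times lower in tumor 1 (7.54%), among them Ndrg1 at 33.0 against 158 CPM and Slc16a3 at 66.0 against 151 CPM. RNA of the ductal marker Krt18 in other classes was also higher in tumor 1. In all live 1 and 2 it was at 303 and 0 CPM in fibroblast-like and 114 and 6.43 CPM in macrophage or monocyte-like cells. Fibroblast-like cells of sorted CAF 1 and 2 held 64.7 and 9.09 CPM. The part of ductal RNA in the members' differences was not tested. Each value comes from 1 tumor, so tumor, dissection and handling cannot be told apart.

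Macrophage or monocyte-like cells differed by cluster as well as by tumor. Of the 482 such cells in all live 1, 399 lay in cluster 5, led by Chil3, Fabp7 and Arg1. Cluster 5 held 81 cells of all live 2, and within that library 13 of 28 members were at least 2 times higher in cluster 5 than in cluster 13, led by Ms4a7, Pf4 and Mrc1 (6.3% of 7346 genes). Aldoa stood at 704 CPM in cluster 5 and 235 CPM in cluster 13 of all live 2, Ldha at 786 and 379 CPM and Bnip3 at 119 and 30.4 CPM. No member was at least 2 times lower (8.74% of genes). Median depths were 4409 and 3291 UMIs per cell.

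**Figure D5:**
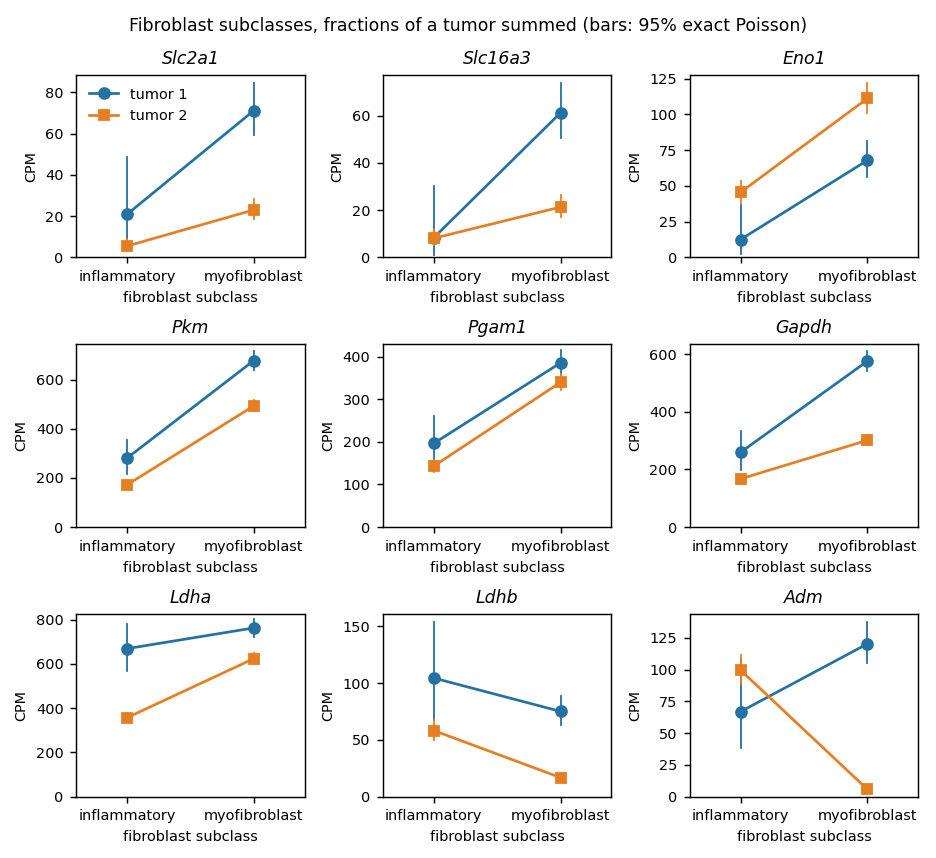
CPM of 9 members in inflammatory-like and myofibroblast-like fibroblasts of each tumor, both fractions of a tumor summed, with exact 95% Poisson intervals. Slc2a1, Eno1, Pkm, Pgam1 and Gapdh are higher in the myofibroblast-like sums of both tumors, while Adm points in opposite directions in the 2 tumors.

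Fibroblast-like cells were split into inflammatory-like cells, which secrete cytokines such as Il6 and Cxcl1, myofibroblast-like cells with contractile or matrix genes, and unnamed subclusters 0, 1 and 2. The unnamed subclusters held 12, 224 and 202 cells and entered neither state. The sums held 34 and 301 inflammatory-like and 231 and 307 myofibroblast-like cells of tumors 1 and 2. By edgeR 0 of 31 members were called between them (0.47% of 10435 genes higher and 0.623% lower in inflammatory-like cells); 0 were higher and 7 lower at an unadjusted p under 0.05, and DESeq2 called 0. With the tumor as a block 3 members, Slc2a1, Eno1 and Pkm, were lower in inflammatory-like cells and none was higher (2.94% and 2.48% of genes). The members' median log2 difference was -0.30, beside -0.02 for all genes. With the block, 11 of 13 proliferation genes tested were lower in inflammatory-like cells (median log2 -3.14), and 2 of 15 dissociation stress genes were higher, with 13 of 15 differences above 0. The myofibroblast-like cells included subcluster 4, led by Pbk, Cdc20 and Plk1, with 83 cells in sorted CAF 2 and 5 to 10 in each other library; the part of both lists in the members' differences was not tested. Without the myofibroblast sum of tumor 1 the members' median log2 difference was -0.16, and without that of tumor 2 it was -0.60. For all genes these medians were -0.004 and 0.009. Members called without the myofibroblast sum of tumor 1 went in both directions.

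Pkm, the last enzyme of the pathway, stood at 280.1 and 171 CPM in inflammatory-like cells of tumors 1 and 2 and at 677 and 493 CPM in myofibroblast-like cells, with no overlap (edgeR log2 -1.33 ± 0.27, adjusted p 0.0154 with the tumor as a block; 0.199 without). Slc2a1 was at 20.9 and 5.53 CPM against 71.2 and 23.1 CPM, lower in inflammatory-like cells within each tumor (edgeR log2 -1.86 ± 0.40, adjusted p 0.0202 with the block; 0.253 without). Eno1 was at 12.5 and 45.5 CPM against 67.9 and 111 CPM (edgeR log2 -1.43 ± 0.36, adjusted p 0.0408 with the block; 0.432 without). Slc2a3 was at 4.18 and 6.18 CPM against 14.4 and 2.45 CPM. The 4.18 CPM of tumor 1 was 1 UMI, and its exact Poisson interval of 0.106 to 23.3 CPM included 14.4 CPM. A reversed order between tumors was therefore not shown. The inflammatory-like values of Slc2a1 and Eno1 in tumor 1 rested on 5 and 3 UMIs, where a floor of 3 counts was 12.5 CPM. Ldhb stood at 105 and 58.2 CPM in inflammatory-like and 75.1 and 16.7 CPM in myofibroblast-like cells (edgeR adjusted p 0.797; 0.0861 with the block). Adm was at 66.9 and 99.5 CPM against 120.3 and 5.64 CPM, so tumor 2 alone had it higher in inflammatory-like cells.

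The myofibroblast-like cells of tumor 1 were mostly of 1 subcluster. Subcluster 6 held 65 of them in all live 1 and 99 in sorted CAF 1 and rested on 3 markers (Col12a1, Thbs2 and Mmp11), none of them contractile. The matching subcluster was left unnamed when high doublet scores were kept and with a lower mitochondrial limit. Macrophage markers summed to 7124 and 7597 CPM in subcluster 6, with 3 and 6 of 12 at 0, against 249.2 CPM in myofibroblast-like cells of tumor 2. That list includes Apoe, a leading gene of the matching subcluster at the other resolution, and its part in the sum was not tested. Lyz2, also on the list, was at 45.3 CPM in myofibroblast-like cells of tumor 1, against 16268 CPM in macrophage or monocyte-like cells of all live 1. Cells of subcluster 6 held Adm at 135 (all live 1) and 239.5 CPM (sorted CAF 1), against 20.6 and 10.1 CPM in subcluster 3, which was led by Sema7a, Cspg4 and Spp1. Subcluster 3 was at least 2 times higher than subcluster 6 in 9 of 20 members in both libraries of tumor 1 (3.18% of 4592 genes): Slc2a1, Gpi1, Tpi1, Gapdh, Eno1, Pkm, Ldha, Slc16a3 and Ero1l. Ldhb and Adm were at least 2 times lower (8.01% of genes). With subcluster 6 left out of the comparison of both states, 2 of 28 members were called, both higher in inflammatory-like cells, beside 216 of 9640 genes higher and 203 lower. Slc16a3 stood at 120.5 and 116 CPM in subcluster 3 and 8.87 and 8.55 CPM in subcluster 6, and Ldhb at 23.5 and 15.1 against 113 and 118 CPM. In tumor 2, only 8 members had the UMIs for the same rule between subcluster 3 and inflammatory-like subcluster 5, and Eno1 and Pkm were at least 2 times higher in subcluster 3 (7.93% of 2347 genes).

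Genes around the pathway, from lists that share no gene with the 34 members, were counted in the same fits. Of 34 further genes of glucose metabolism, 26 were tested between ductal-like and fibroblast-like cells of the sorted libraries, and edgeR called 4 higher and 3 lower in ductal cells (9.5% and 14.2% of all 10697 genes). Fbp2, a fructose bisphosphatase, had 720 and 19 UMIs in ductal and none in fibroblast-like cells, at least 14.5-fold higher in sorted CAF 1 and 26.5-fold in sorted CAF 2 against a floor of 3 counts per library. Me1, the NADPH-making malic enzyme, stood at 135 and 95.1 CPM against 24.1 and 20.4 CPM (log2 2.50 ± 0.40, edgeR adjusted p 0.00378). Lower in ductal cells were Pdk3, a kinase that shuts pyruvate dehydrogenase, at 0.300 and 3.14 CPM against 33.2 and 22.7 CPM, and Pygl, a glycogen phosphorylase, at 2.00 and 1.96 CPM against 22.4 and 34.2 CPM. The median of this list was 0.47, between that of the 34 members and that of all genes.

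HIF regulators and targets outside glycolysis went in both directions, as did genes in general. Of 39 such genes 36 were tested in the sorted libraries, and edgeR called 4 higher and 7 lower in ductal-like cells (9.5% and 14.2% of all genes), with a median log2 difference of 0.19. Lox, which crosslinks collagen, was at 1.10 and 8.65 CPM in ductal and 636 and 799 CPM in fibroblast-like cells (log2 -7.43 ± 0.97, edgeR adjusted p 0.00197). Epas1, the HIF2 alpha subunit, was at 2.40 and 1.96 CPM against 53.9 and 34.3 CPM (log2 -4.13 ± 0.50, edgeR adjusted p 0.00164), and the nuclear receptor gene Rora at 2.65 and 5.50 CPM against 85.5 and 59.3 CPM. Stc1, a secreted glycoprotein, was higher in ductal cells at 36.1 and 33.0 CPM against 1.66 and 2.44 CPM (log2 4.03 ± 0.59, edgeR adjusted p 0.00298). Of 25 genes of oxidative phosphorylation, tested for comparison, edgeR called none between ductal-like and fibroblast-like cells in either fraction (medians 0.69 sorted and 0.53 all live; 2 higher in the sorted libraries with the tumor as a block). In the all live libraries the HIF list had 1 higher and 5 lower of 36, and the glucose list 1 higher and 3 lower of 27, beside 3.72% and 8.57% of all 10558 genes.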

How the data were processed

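Single cells of 4 libraries were analysed. The deposited values are counts of UMIs per gene and barcode, made by the authors with Cell Ranger 2.0.0 and CASAVA 1.4 on mm10, per the submitters' processing notes; for the annotation used in counting, the sources used here give nothing. Tumors were digested at 37 C for 45 min and passed through a 100 um strainer, per the labels' protocols. The series' text speaks of technical replicates, which the deposited barcodes do not separate, so n is the tumor.

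Barcodes needed 500 detected genes, with no more than 10% of UMIs mitochondrial. Scrublet called only 27 doublets (0.338%), too few to have worked, so the 163 cells with the highest scores were removed. Clusters (scanpy 1.11.5, 2000 variable genes without the members, 30 components, 15 neighbours, Leiden resolution 1) were named from at least 3 markers; fibroblast-like cells were clustered again. A cluster of fibroblast-like cells led by leukocyte genes was left unnamed by a rule chosen after seeing the data. Counts were summed per class and library (at least 20 cells) and tested with edgeR 4.0.16 (TMM, filterByExpr, quasi-likelihood) in R 4.3.3, adjusted by Benjamini-Hochberg over all genes tested. DESeq2 1.42.0, other scalings, filters, clusterings and left-out sums were alternatives. Scripts were tested on simulated data. Poisson and Clopper-Pearson 95% intervals cover counting error only, and p-values without the block measure the spread between 2 tumors within classes. Those with the tumor as a block measure what is left after the difference between tumors is removed. Fits between fractions and between fibroblast states had 2 residual degrees of freedom without the block and fewer with it.

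Libraries with the same number come from the same tumor, per the labels, and deviated together from their group means (correlation 0.28 to 0.80), so fits with the tumor as a block are given where they change a call. The members and lists were chosen with earlier results of these data known. Full values are given for members past an adjusted p of 0.05, at most 12 per comparison, and for their isozymes; further members named were chosen after their values were seen. From each wider list at most the 4 largest called differences are named.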

Additional observations from a re-analysis of the deposited data

Results flagged for a closer look

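Some members stood higher in a class or cluster that no comparison used than in any of the 5 classes compared within the same library. Adm was at 226.8 CPM (exact 95% interval 161 to 310) in 21 blood endothelial-like cells of all live 1, where the highest of the 5 classes was 65.9 CPM. Pfkp was at 219 CPM (192 to 249.99) in 220 dendritic-like cells of all live 2, against at most 65.6 CPM in the 5 classes there. Pdk1, a kinase that shuts pyruvate dehydrogenase, was at 102 CPM (67.2 to 148) in 125 T or NK-like cells of all live 2, against at most 27.2 CPM there, while ductal-like cells of sorted CAF 1 held 43.4 CPM.

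An unnamed cluster of 27 cells in sorted CAF 2, with Cfd, Adipoq, Retn and Car3 as leading genes, had 3 members above the 5 classes of that library. Hk2 was at 438 CPM (369.7 to 515) against at most 133 CPM, Bnip3 at 447 CPM (378 to 525) against at most 162 CPM, with 351 CPM in ductal-like cells of sorted CAF 1, and Pfkfb3 at 69.5 CPM (44.1 to 104) against at most 21.2 CPM. Each of these values comes from 1 library, and none was tested.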

How the results depend on the processing

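Counts are of members called by adjusted p. The counts over all genes changed in these settings and left-out fits too, so a change is not a result about the members alone. The changes were not in proportion. For ductal against fibroblast, all live, 393 genes were higher and 905 lower of 10558. Without the filter these were 1113 and 1422 of 18475, while members went from 2 and 1 of 33 to 11 and 3 of 34. For neutrophil against macrophage, 2 genes higher and 0 lower became 230 and 53, and members went from 0 to 1. Whether members moved more than other genes was not tested. For ductal-like against fibroblast-like cells in the all live libraries the count of 3 became 14 without the filter on low counts, 7 with DESeq2, 12 with the replicate block, 5 with the other Leiden resolution and 7 with both fractions summed, and ranged from 1 to 13 with a sum left out. In the sorted libraries 10 became 25 without the filter and 17 with DESeq2, and ranged from 2 to 25 with a sum left out. For macrophage or monocyte-like against fibroblast-like cells 1 became 2 with RLE scaling, with no scaling and with the other resolution, 8 without the filter, 3 with DESeq2, 5 with the replicate block, 5 with both fractions summed, and 0 with any sum left out (0 to 0). For ductal-like against macrophage or monocyte-like cells 5 became 10 without the filter and 9 with the replicate block, and ranged from 1 to 9 with a sum left out. For neutrophil-like against macrophage or monocyte-like cells 0 became 1 without the filter, with DESeq2, with the replicate block and with the other resolution. For mesothelial-like against fibroblast-like cells 0 became 6 without the filter, 4 with DESeq2, 1 with the replicate block and 1 with the other resolution. For sorted against all live fibroblast-like cells 0 became 2 with the replicate block. For inflammatory-like against myofibroblast-like cells 0 became 2 without the filter, 3 with the replicate block and 2 without subcluster 6 (an alternative chosen after seeing the data), and ranged from 0 to 3 with a sum left out. Without the ductal sum of tumor 1 the all live log2 difference of Aldoa was -0.0219 and that of Gapdh -0.43 (ranges with a sum left out -0.0219 to 2.01 and -0.43 to 3.25), and without the sorted sum of tumor 1 that of Adm between fractions was -0.26 (range -0.26 to 1.75). The cause of these changes was not tested, other than that fewer sums enter a fit when 1 is left out, where the lone sum is assumed to vary like the other group. In the sorted ductal comparison the replicate block gave 15. Keeping high doublet scores moved 8 of 544 levels outside their counting interval and the lower mitochondrial limit 61 of 510. With 2 tumors the fits cannot separate a class difference from a difference in 1 tumor, and members with few UMIs are limited by depth.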

Other observations

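Acinar-like cells, the enzyme-secreting cells of the exocrine pancreas, were found only in tumor 2 in numbers that allow a sum, and held Car9 at the level of the ductal-like cells. Car9 was at 97.9 CPM (exact 95% interval 74.3 to 127) in 88 acinar-like cells of all live 2 and at 74.1 CPM (40.5 to 124) in 26 of sorted CAF 2. Ndrg1 was at 424 CPM (333 to 534) in 21 blood endothelial-like cells of all live 1 and at 219 CPM (146 to 317) in 30 of all live 2, both above the highest ductal value of tumor 2. Adm in the same endothelial cells was at 7.84 CPM in all live 2, which was 1 UMI, so its high level was seen in 1 tumor. These values are descriptions of single libraries.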
